A study of Caenorhabditis elegans with 4 samples.

Results

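Ligand-gated ion channels open when a neurotransmitter binds to them. The 90 genes described here encode subunits of such channels in *C. elegans*. They were chosen by symbol from the platform annotation: every probe set that names 1 gene counted if the symbol is *acr*, *lgc*, *glr*, *nmr*, *avr*, *glc* or *gab* followed by a number, or is *unc-29*, *unc-38*, *unc-63*, *lev-1*, *lev-8*, *unc-49*, *exp-1* or *mod-1*. Together they had 103 probe sets, out of 17118 genes and 22548 probe sets on the array, and the probe set with the highest signal, averaged over the 4 arrays, stands for each gene. A further 6 probe sets name a channel gene together with another entry and were left out.

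Total RNA of embryos, freed from gravid adults by hypochlorite, was hybridized to 4 Affymetrix *C. elegans* genome arrays. The arrays labelled *daf-19(-)* (2 arrays, genotype *daf-19(m86)*;*daf-12(sa204)*) were compared with those labelled *daf-19(+)* (2 arrays, genotype *daf-12(sa204)*). The *daf-12(sa204)* mutation was therefore present in both groups, where it counters the constitutive dauer formation of *daf-19(m86)*. *daf-19* encodes an RFX-type transcription factor needed for sensory cilia.

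The labels are disputed by a source of the study itself. A supplementary table heads the same 4 arrays with the opposite genotypes, and in 1998 of 1998 rows used here every signal column there is identical to an array of the other label. *daf-19* itself had signals of 2493.4 and 2365.2 on the arrays labelled *daf-19(-)*, against 767.5 and 856.8 on those labelled *daf-19(+)*, and the second of its probe sets had 1456.2 and 1231.2, against 440.2 and 460.2. The log2 fold changes were 1.56 and 1.54 (limma adjusted p = 0.00166 and 0.00513). The targeted gene was thus higher where the label says that it is mutated, and nothing used here says whether *m86* removes the RNA that these probes detect. Ciliary genes, which DAF-19 is known to activate, also ran against the labels. *osm-6*, which encodes a protein of intraflagellar transport, had 248 and 170 on the arrays labelled *daf-19(-)*, against 7.5 and 4.8 on those labelled *daf-19(+)*, and all 7 markers of ciliated neurons were higher on both arrays labelled *daf-19(-)*, with a median log2 fold change of 2.51. The main text of the study also places *osm-6* among the genes most reduced in *daf-19(-)* animals. All directions below hold for the arrays as labelled, and every one of them turns round under the other naming.

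The channels fall into 2 structural classes. The larger class is the pentameric Cys-loop family, which in *C. elegans* holds nicotinic acetylcholine receptors and channels gated by GABA, glutamate, serotonin, tyramine or acetylcholine that pass either cations or chloride. The smaller class is the tetrameric ionotropic glutamate receptors, of AMPA, kainate and NMDA kind. Both act mainly at synapses of neurons and on muscle, and several are the targets of antiparasitic drugs: levamisole opens nicotinic receptors of body wall muscle, and ivermectin opens glutamate-gated chloride channels. Neurons and muscles differentiate late in embryogenesis.

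Each value is a GCOS signal, a linear measure of the brightness of a probe set, which the authors had scaled to a target of 500 on each chip. The median over all probe sets was 136 and 144 where the label was *daf-19(-)*, against 106 and 127 where it was *daf-19(+)*. A probe set was tested if it reached 80 on at least 2 of the 4 arrays, which 13096 did. Differences were tested with limma on log2(signal + 16), where changes of dim probe sets come out too small, and a difference was called at an adjusted p under 0.05 over all of these probe sets. The study describes 2 separate microarray experiments, and the supplementary table heads the second pair of arrays as a biological replicate. Which steps were separate is not stated, so the p-values rest on the spread among these arrays, which may be technical. In whole embryos, fewer cells of a type and less RNA per cell cannot be told apart.

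Most channel genes were dim in these embryos. Of the 90 members, 37 reached the filter and 43 stayed under 80 on every array. The number of members at 80 or more was 36 and 43 where the label was *daf-19(-)*, against 24 and 29 where it was *daf-19(+)*. Only 1 of the 37 tested members passed limma, and it was higher on the arrays labelled *daf-19(-)*. That is 2.7% of the tested members, beside 0.422% of the 9723 tested genes. None was lower, beside 0.0926% of the tested genes. At an unadjusted p under 0.05, limma had 13 of the 37 higher and 0 lower, beside 12% and 7.92% of the tested genes. In a blocked fit, which compares arrays within each replicate number, 5 were higher and 0 lower, beside 4.7% and 3.36% of the tested genes. The mean signal was at least 2-fold higher in 5 of the 37 and at least 2-fold lower in 0, beside 3.28% and 1.05% of the tested genes. The 5 were *lgc-20*, *acr-9*, *acr-19*, *lgc-46* and *glc-2*, and the last 4 of these reached the filter through the arrays labelled *daf-19(-)* alone, which fixed their direction. Among members at 80 or more on all 4 arrays, 1 was at least 2-fold higher.

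The tested members leaned to 1 side. Their median log2 fold change was 0.53, with a range of -0.19 to 1.87, beside a median of 0.06 for all tested genes. A positive value was found for 32 of the 37 (86.5%), beside 55.5% of the tested genes. In 26 of the 37 (70.3%) both arrays labelled *daf-19(-)* were above both arrays labelled *daf-19(+)*, and in 0 of the 37 they were below. The same shares over the tested genes were 30.9% and 23%. Part of the lean comes with the filter: 7 of the 37, namely *acr-7*, *acr-9*, *acr-19*, *glc-2*, *glc-3*, *glr-8* and *lgc-46*, reached 80 on both arrays labelled *daf-19(-)* and on neither labelled *daf-19(+)*, so that their direction was fixed when they were chosen for testing. Of the tested genes, 2.6% were of this kind. Among the 22 members at 80 or more on all 4 arrays, groups were separated upward in 17 (77.3%) and downward in 0, beside 29.3% and 25.1% of such genes. Over all 90 members without any filter, 46 (51.1%) were separated upward and 3 downward, beside 26.9% and 18.1% of 17118 genes. After quantile normalization, 18 of 34 tested members were separated upward and 1 downward, beside 26.5% and 26.4% of the tested genes, and 26 of 34 had a positive fold change.

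**Figure D1:**
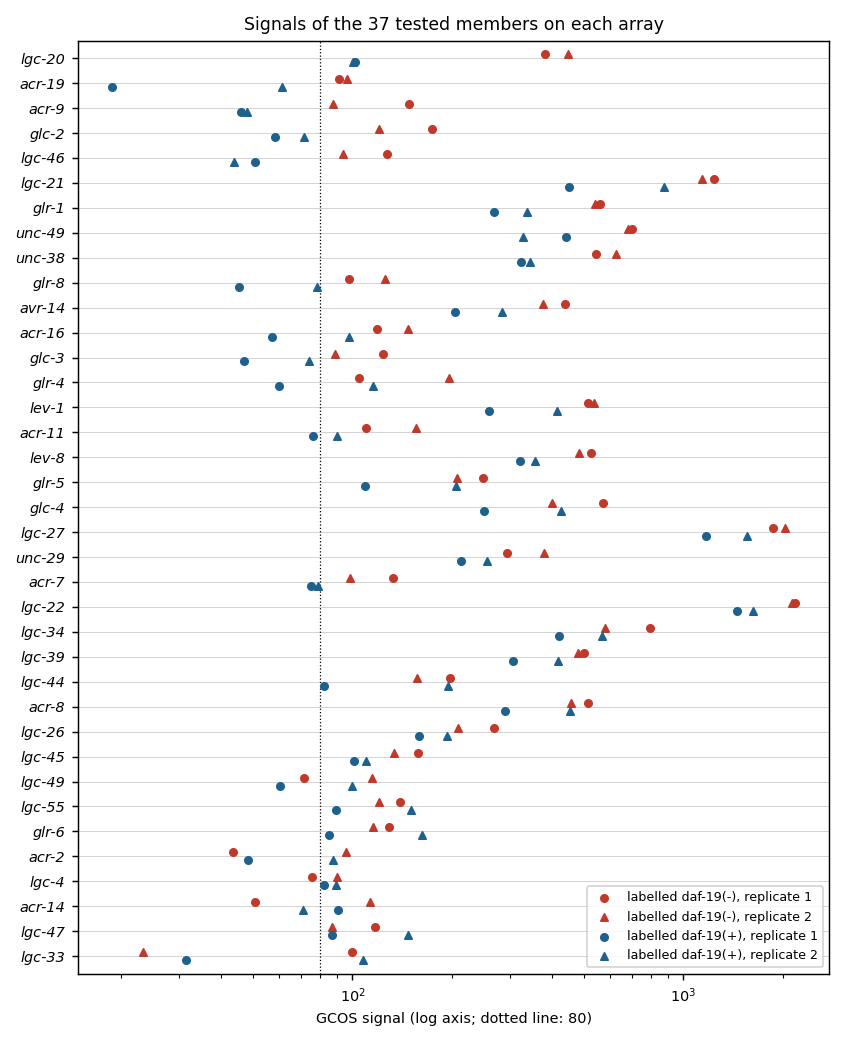
GCOS signal on a log axis for each of the 37 tested members, ordered by fold change, with 1 point for each array: red for the arrays labelled *daf-19(-)*, blue for those labelled *daf-19(+)*, circles for replicate 1 and triangles for replicate 2. In 26 members both red points lie right of both blue points, and the dotted line marks the floor of 80.

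*lgc-20* was the member that passed limma. It encodes a Cys-loop channel subunit of the large *lgc* series, and no ligand is assigned to it here. Its signals were 380.9 and 447.2 on the arrays labelled *daf-19(-)*, against 102.1 and 100.3 on those labelled *daf-19(+)*. The groups lay far apart, and the arrays within each label lay close together. The ratio of mean signals was 4.09, and with 1 array left out it ran from 3.76 to 4.42. The log2 fold change was 1.87 (standard error 0.30, limma adjusted p = 0.0102). Within replicate 1 the log2 difference was 1.75, and within replicate 2 it was 1.99. The call was lost without replicate 1 labelled *daf-19(-)* (limma adjusted p = 0.0884), without replicate 2 of that label (limma adjusted p = 0.239) and when dim probe sets were kept (limma adjusted p = 0.158), while the log2 fold change stayed between 1.53 and 2.02 over 13 alternatives, whose adjusted p from limma ran from 1.46e-06 to 0.239. Its only probe set is of the type whose probes match more than 1 transcript, so another transcript may contribute to this signal. Among the other tested members, probe sets of that type stand for *glr-1*, *unc-49*, *avr-14*, *lev-1*, *unc-29*, *lgc-4*, *lgc-44*, *lgc-47* and *lgc-49*.

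The other 4 members that passed the blocked fit were *lgc-21*, *glr-1*, *unc-49* and *unc-38*. *lgc-21*, another Cys-loop subunit of the *lgc* series, had signals of 1238.9 and 1141.7 on the arrays labelled *daf-19(-)*, against 450.2 and 871.3 on those labelled *daf-19(+)*. The groups did not overlap, but the arrays labelled *daf-19(+)* lay farther from each other than replicate 2 of that label lay from the other group. The log2 fold change was 0.91 (standard error 0.27, limma adjusted p = 0.139, and 0.00355 in the blocked fit). With 1 array left out the ratio ran from 1.37 without replicate 1 labelled *daf-19(+)* to 2.64 without replicate 2 of that label. With the block, limma estimated an infinite prior degree of freedom, which leaves the variance trend as the only basis of those p-values.

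Nicotinic acetylcholine receptors are cation channels, and 25 of their subunit genes were among the members, in 5 groups known from sequence. Of the 25, 12 were tested. None passed limma without the block, and 10 of the 12 were separated upward, beside 30.9% of all tested genes. In 3 of the 10, *acr-7*, *acr-9* and *acr-19*, the filter had fixed the direction.

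The levamisole receptor of body wall muscle is assembled from *unc-29*, *unc-38*, *unc-63*, *lev-1* and *lev-8*, of which *unc-38*, *unc-63* and *lev-8* encode alpha subunits, which carry the paired cysteines of the acetylcholine binding site. *unc-38* had signals of 543.4 and 627.2 on the arrays labelled *daf-19(-)*, against 322.8 and 343.2 on those labelled *daf-19(+)*. *lev-1* had 515.4 and 538.1, against 259.4 and 415.5. The groups stood apart for both genes, with the lowest *lev-1* signal on replicate 1 labelled *daf-19(+)*. *lev-8* had 526.2 and 484.8, against 320.5 and 356.2. *unc-29* had 293.6 and 380.0, against 212.6 and 255.1. Again neither gene had overlapping groups, so that all 4 tested subunit genes were higher on both arrays labelled *daf-19(-)*. Of all tested genes 30.9% were separated upward, and of all tested members 70.3%. Their log2 fold changes were 0.78 for *unc-38*, 0.65 for *lev-1*, 0.56 for *lev-8* and 0.49 for *unc-29*, with adjusted p from 0.143 to 0.357 by limma. *unc-38* passed with the replicate block (limma adjusted p = 0.0373). *unc-63* did not reach the filter, with 64.5 and 78.6, against 23.8 and 56.2.

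Subunits close to these were less uniform. *acr-8*, whose counterpart in the parasite *Haemonchus contortus* enters levamisole receptors, had 514.8 and 457.6 on the arrays labelled *daf-19(-)*, against 288.2 and 453.2 on those labelled *daf-19(+)*. Here the arrays of replicate 2 were nearly level, and the log2 fold change was 0.41 (limma adjusted p = 0.425). *acr-2* and *acr-3* encode subunits of a receptor of the cholinergic motor neurons and are neighbours on the RefSeq map. *acr-2* had 43.5 and 95.7, against 48.3 and 87.4, and *acr-3* had 47.5 and 93.8, against 49.5 and 46.3. Both genes overlapped between groups, and *acr-3* was not tested. *acr-12*, a further motor neuron subunit, had 95.5 and 74.7, against 54.7 and 31.9, without overlap and below the filter. *acr-6* was dim as well, with 38.2 and 56.3, against 11.3 and 7.6.

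In the group of *acr-16*, 6 of 9 members were tested, with a median log2 fold change of 0.64. This median includes *acr-7*, *acr-9* and *acr-19*, whose direction the filter had fixed. *acr-16* itself encodes the nicotine-sensitive, levamisole-insensitive receptor of body wall muscle. It had 118.9 and 147.6 on the arrays labelled *daf-19(-)*, against 57.1 and 97.4 on those labelled *daf-19(+)*, for a log2 change of 0.71 (limma adjusted p = 0.364). *acr-15*, its neighbour on the RefSeq map, had 54.9 and 134.5, against 37.2 and 22.5, and was too dim to test. In both neighbours the groups did not overlap. *acr-19* had 91.3 and 96.1, against 18.8 and 61.2, and *acr-9* had 148.0 and 87.2, against 46.1 and 48.0, with log2 fold changes of 1.08 and 1.05 (limma adjusted p = 0.288 and 0.248). These were the largest among the tested nicotinic genes, both fixed in direction by the filter, and the ratio of *acr-19* ran from 1.53 to 4.98 with 1 array left out. *acr-11* had 109.7 and 156.0, against 76.1 and 89.7. *acr-7* had 132.8 and 98.0, against 75 and 78.9. *acr-14* overlapped, with 50.8 and 112.8, against 90.3 and 71.0, where the arrays labelled *daf-19(-)* enclose the others. *acr-10* and *acr-21* stayed under 80 throughout.

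From the group of *deg-3*, 6 genes were members, and 0 of the 6 were tested. *deg-3* itself falls outside the naming rule and is not counted here. *acr-24* had 87.7 and 37.8 on the arrays labelled *daf-19(-)*, against 13.1 and 9.8 on those labelled *daf-19(+)*, the only member of this group without overlap. *acr-18* had 5.1 and 83.6, against 62.9 and 4.8, so that each label held a high and a low array. *acr-23*, which encodes a betaine receptor and a target of the drug monepantel, had 24.6 and 5.5, against 12.6 and 29. *acr-5*, *acr-17* and *acr-20* were as dim and also overlapped.

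**Figure D2:**
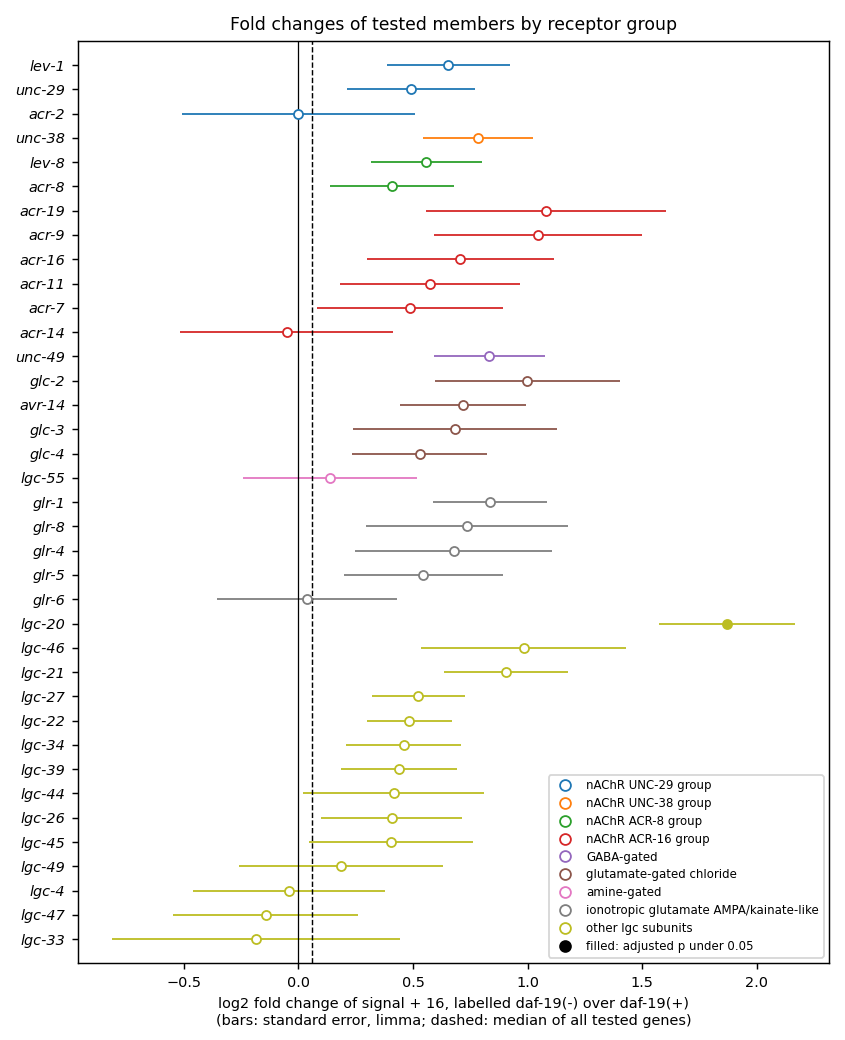
Log2 fold change of signal + 16, arrays labelled *daf-19(-)* over those labelled *daf-19(+)*, for the 37 tested members by receptor group, with the standard error from limma as bars. *lgc-20*, at 1.87, is the one filled point (adjusted p under 0.05), and the dashed line is the median of all tested genes, 0.06.

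GABA-gated channels had 1 tested gene of 6. *unc-49* encodes the GABA-A type chloride channel of body wall muscle, which relaxes the muscle. It had 700.4 and 682.3 on the arrays labelled *daf-19(-)*, against 441.8 and 328.0 on those labelled *daf-19(+)*. The groups were separated, and in this gene replicate 2, not replicate 1, was the lower of the arrays labelled *daf-19(+)*. The log2 fold change was 0.83 (standard error 0.24, limma adjusted p = 0.132, and 0.0198 in the blocked fit). *unc-49* has 4 probe sets, and the second brightest had 447.6 and 453.1, against 392.5 and 366.7, for a log2 change of 0.24 (limma adjusted p = 0.618, and 0.620 in the blocked fit). The dimmer ones had 50 and 54, against 25.5 and 20, and 35.5 and 15.5, against 9.3 and 5.1. All 4 were separated upward, but the block's call holds for the brightest alone. The brightest, the second brightest and the one with 50 and 54 are of the type whose probes match more than 1 transcript. *unc-49* is known to make several proteins by alternative splicing, and which transcripts each probe set reads is not given in the sources used here.

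Among the dim GABA-related genes, *exp-1* encodes a GABA-gated cation channel that excites enteric muscle. It had 24.2 and 57.2, against 1.3 and 15.2 on the arrays labelled *daf-19(+)*. *lgc-35*, another cation channel opened by GABA, had 36.3 and 78.5, against 3.1 and 20.9, and *lgc-38* had 53.6 and 142.7, against 4.5 and 49.9. These 3 genes were highest on replicate 2 labelled *daf-19(-)* and lowest on replicate 1 labelled *daf-19(+)*. A dimmer probe set of *lgc-38* had 33.6 and 1.3, against 30 and 6, and overlapped. By its brightest probe set *gab-1* pointed the opposite way to its neighbour *lgc-37*. *gab-1* had 60.9 and 27.1, against 23.4 and 16.8, and *lgc-37* had 32.4 and 10.8, against 51.7 and 39.0. The second probe set of *gab-1* had 5.6 and 7.1, against 5.5 and 22.4, and overlapped. Signals this far under 80 carry no test here.

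Glutamate-gated chloride channels, which inhibit neurons and pharyngeal muscle, had 5 genes, 4 of them tested and none called. *avr-14*, an ivermectin target, had 438.0 and 376.3 on the arrays labelled *daf-19(-)*, against 203.9 and 283.6 on those labelled *daf-19(+)*, for a log2 change of 0.72 (limma adjusted p = 0.203). The second probe set of *avr-14* had 176.1 and 221.3, against 103.2 and 58.7, for a log2 change of 1.18 (limma adjusted p = 0.158), and it passed with the replicate block (limma adjusted p = 0.0376) where the first did not (limma adjusted p = 0.0883). Both probe sets separated the groups, and both are of the type whose probes match more than 1 transcript. *glc-2*, a beta-type subunit, had 174.2 and 120.0, against 58.2 and 71.3, and *glc-3* had 123.8 and 88.3, against 46.9 and 74. Their log2 fold changes were 1.00 and 0.68, and the filter had fixed their direction. *glc-4* had 570.9 and 400.2, against 249.9 and 425.5, with replicate 2 labelled *daf-19(+)* above replicate 2 labelled *daf-19(-)*. *glc-1*, another ivermectin target, was dim, with 29.5 and 41.3, against 29.1 and 53.3.

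The members listed here as gated by biogenic amines were mostly dim, and the list may not hold every channel that amines open. *lgc-55*, the tyramine-gated chloride channel that acts in escape behaviour, was the only tested gene of the 5 listed. It had 139.5 and 120.3 on the arrays labelled *daf-19(-)*, against 89.4 and 150.3 on those labelled *daf-19(+)*, with overlap and a log2 change of 0.14 (limma adjusted p = 0.879). *mod-1*, a serotonin-gated chloride channel, had 11 and 11.8, against 9.8 and 32.7. *lgc-40* had 77.8 and 110.8, against 55.9 and 73.5, without overlap and just below the filter, whose nearest member inside was *acr-9*. *lgc-53* and *lgc-50* were dim and overlapped.

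Ionotropic glutamate receptors of the AMPA and kainate kind had 5 tested genes of 8, with a median log2 fold change of 0.68. *glr-1* encodes the AMPA-type subunit of the interneurons that command forward and backward movement. It had 559.0 and 540.6 on the arrays labelled *daf-19(-)*, against 267.5 and 337.8 on those labelled *daf-19(+)*. The arrays labelled *daf-19(-)* lay close together and well above the others. The log2 fold change was 0.84 (standard error 0.25, limma adjusted p = 0.136, and 0.0280 in the blocked fit). The second probe set had 329.0 and 339.7, against 219.8 and 300.2, for a log2 change of 0.36 (limma adjusted p = 0.498, and 0.468 in the blocked fit). It too was separated upward, and it passed neither fit. Both probe sets of *glr-1* are of the type whose probes match more than 1 transcript. *glr-5* had 247.9 and 206.8, against 108.9 and 205.0. *glr-8*, which is part of the median above, had 97.3 and 125.2, against 45.4 and 78.0, and the filter had fixed its direction.

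*glr-4* has 3 probe sets that did not behave alike. The brightest had 104.6 and 195.6 on the arrays labelled *daf-19(-)*, against 60.1 and 115.2 on those labelled *daf-19(+)*. The next had 103.5 and 100.3, against 2.2 and 112.0, and the dimmest 26.6 and 23.3, against 5.1 and 10.2. The second one turns on replicate 1 labelled *daf-19(+)*, since the other array of that label was above both arrays labelled *daf-19(-)*. *glr-6* had 128.5 and 115.1, against 85.2 and 162.1, and overlapped. *glr-2*, an AMPA-type subunit like GLR-1, had 21.1 and 56.3, against 48.4 and 43.0, and a dimmer probe set with 48.0 and 25, against 2.2 and 5.6. *glr-3* stood at 1.5 and 1.5, against 5.0 and 2.3, at the bottom of the scale. *glr-7* and *glr-10* were also near it.

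The NMDA receptor genes were dim. *nmr-1* had 17.4 and 28.8 on the arrays labelled *daf-19(-)*, against 1.9 and 11.3 on those labelled *daf-19(+)*. *nmr-2* had 49.3 and 13.4, against 48.2 and 17.4. The groups were separated for *nmr-1* and overlapped for *nmr-2*, where both replicates 1 were high.

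Of 39 further genes, nearly all of the *lgc* series, 14 were tested, with a median log2 fold change of 0.43. *lgc-22* had 2177.7 and 2130.9 on the arrays labelled *daf-19(-)*, against 1449.3 and 1626.8 on those labelled *daf-19(+)*. *lgc-27* had 1866.6 and 2022.2, against 1169.5 and 1552.7. The groups stood apart in both, at log2 fold changes of 0.48 and 0.52 (limma adjusted p = 0.206 and 0.208). *lgc-34* had 794.8 and 580.4, against 422.1 and 567.1. *lgc-39* had 500.3 and 480.5, against 305.6 and 417.3. *lgc-26* had 268.4 and 209.0, against 158.7 and 192.4. Each of these was separated upward, with replicate 1 labelled *daf-19(+)* lowest. *lgc-45* had 157.6 and 133.5, against 101.4 and 110.2. A dimmer probe set of *lgc-45* had 9 and 5.5, against 8.4 and 4.9, and overlapped. *lgc-44* had 196.5 and 156.7, against 82.2 and 193.9, and overlapped.

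*lgc-46* to *lgc-49* belong with the acetylcholine-gated chloride channels. *lgc-46* had 127.1 and 93.5 on the arrays labelled *daf-19(-)*, against 50.9 and 44.0 on those labelled *daf-19(+)*, for a log2 change of 0.98 (limma adjusted p = 0.265), in a direction fixed by the filter. *lgc-47* had 116.9 and 87.0, against 86.5 and 146.9, and *lgc-49* had 71.2 and 114.9, against 60.5 and 99.4. *lgc-47* and *lgc-49* overlapped between groups, as did the dim *lgc-48*. *lgc-4* was nearly level, with 75.7 and 89.8, against 81.8 and 89.2. *lgc-33* had 99.6 and 23.3, against 31.4 and 107.9. Its replicates disagreed within both groups, with log2 differences of 1.29 in replicate 1 and -1.66 in replicate 2, the widest split among the tested members.

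The 53 members below the filter had signals from 1.0 to 142.7 on the arrays labelled *daf-19(-)*, and no signal above 73.5 on those labelled *daf-19(+)*. In 20 of them the groups were separated upward, in 3 downward, and in 30 they overlapped. Over all 7395 genes below the filter, 21.7% were separated upward and 11.6% downward. The 3 that were lower were *lgc-37*, *glr-3* and *lgc-18*. *lgc-18* had 1.2 and 1.1 on the arrays labelled *daf-19(-)*, against 15.6 and 21.1 on those labelled *daf-19(+)*. Further members of the *lgc* series were separated upward below the filter. *lgc-41* had 40.8 and 77 on the arrays labelled *daf-19(-)*, against 23.1 and 14.9 on those labelled *daf-19(+)*. *lgc-51* had 35.7 and 60, against 15.6 and 17.6. *lgc-58* was at 68.4 and 94.3, against 33.3 and 58.4. *lgc-30* was at 108.5 and 74, against 57.6 and 45.8. In each of these 4 the arrays labelled *daf-19(-)* lay farther from each other than from the nearest array of the other label. The next ones came within a few units of the other label on their nearest arrays. *lgc-11* had 65.1 and 57.4, against 4.6 and 52, and *lgc-10* had 64.6 and 39.3, against 21.9 and 38.2. A dimmer probe set of *lgc-11* had 7.7 and 49.8, against 31.2 and 5.4, and overlapped. *lgc-6* had 24.8 and 28.1, against 19.8 and 21.4, *lgc-14* had 19.8 and 18.1, against 14.7 and 1.4, and *lgc-57* had 4.2 and 17.3, against 2.5 and 2.6. On the RefSeq map *lgc-13*, *lgc-14* and *lgc-15* are neighbours, and so are *lgc-5* and *lgc-6*. Of these, *lgc-14* and *lgc-6* were separated upward and the others overlapped. Signals of this size have no test here, and no fold is given for them.

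**Figure D3:**
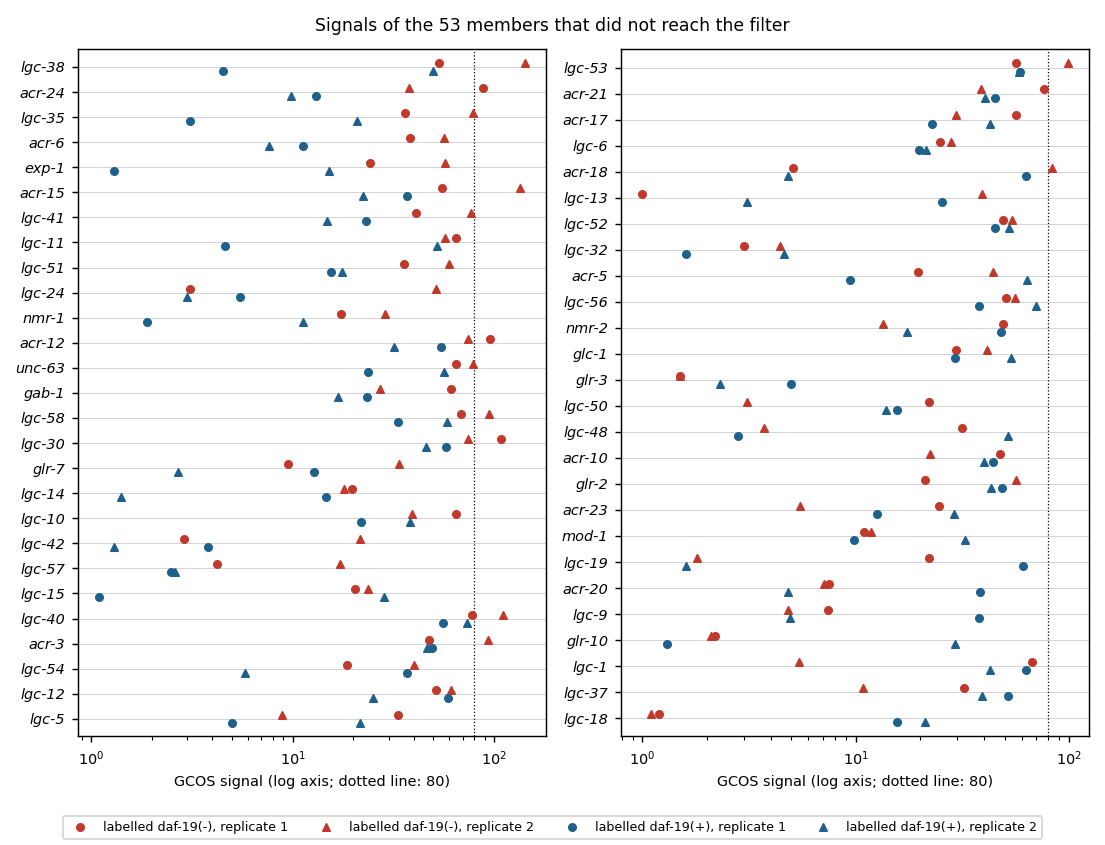
GCOS signal on a log axis for the 53 members that did not reach 80 on 2 arrays, with 1 point for each array, coloured red for the arrays labelled *daf-19(-)* and blue for those labelled *daf-19(+)*. Red and blue points mix in 30 members, lie apart with red higher in 20, and lie apart with red lower in 3.

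The difference was not the same size in the 2 replicate numbers. Over the tested members the median log2 difference was 0.72 in replicate 1 and 0.38 in replicate 2, beside 0.09 and 0.02 over all tested genes. It was positive in 34 of 37 members in replicate 1, in 31 in replicate 2 and in 28 in both. Replicate 1 labelled *daf-19(+)* was the lowest of the 4 arrays for 30 of the 37 (81.1%), beside 40.7% of the tested genes. Between the arrays of that label, members were lower in replicate 1 by a median of -0.43 on the log2 scale, beside -0.06 for all tested genes. Between the arrays labelled *daf-19(-)* the medians were 0.11 and 0.00. Without replicate 1 labelled *daf-19(+)* the median fold change of the members was 0.36 and that of all genes 0.03, and 26 of 36 tested members were separated upward and 4 downward, beside 40.2% and 34.1% of the tested genes. Without replicate 2 of that label 32 of 34 were separated upward, beside 48.1% of the tested genes, the median was 0.77, and 6 members passed limma: *acr-19*, *glr-1*, *lev-1*, *lgc-20*, *lgc-21* and *lgc-27*. In that fit 8.27% of all tested genes were called higher and 5.35% lower. Without replicate 1 labelled *daf-19(-)* 24 of 29 were separated upward, and without replicate 2 of that label 21 of 27, beside 40.6% and 41% of the tested genes. How the replicate 1 array labelled *daf-19(+)* came to be low was not tested.

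**Figure D4:**
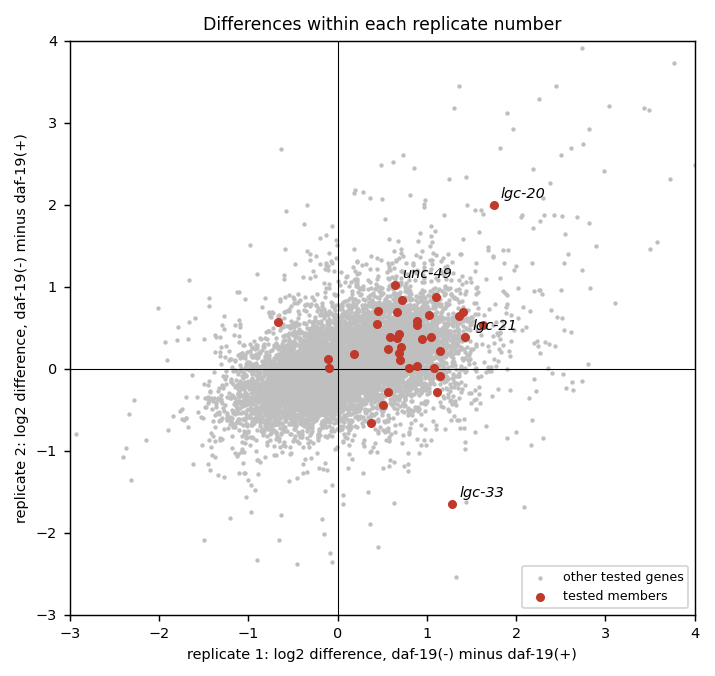
Log2 difference of signal + 16, array labelled *daf-19(-)* minus array labelled *daf-19(+)*, within replicate 1 (horizontal) and within replicate 2 (vertical), for the 37 tested members in red and the other tested genes in grey, 7 of which lie outside the axes. Of the members, 28 lie above 0 on both axes, with *lgc-20* at 1.75 and 1.99, and *lgc-33* at 1.29 and -1.66 lies apart below.

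Genes that work with these channels had fold changes in the same range, and none of them passed limma. The list of accessory genes holds proteins that assemble, cluster or modulate the receptors. Of its 27 genes 22 were tested, with a median log2 fold change of 0.36, 17 positive values and 0 called with or without the block. *stg-2* and *sol-1* encode auxiliary proteins of AMPA-type receptors. *stg-2* had 162.4 and 156.9 on the arrays labelled *daf-19(-)*, against 75.4 and 86.5 on those labelled *daf-19(+)*, and the log2 fold changes were 0.86 for *stg-2* and 0.63 for *sol-1*. *madd-4*, which positions receptors at neuromuscular synapses, had 0.60, and *nlg-1*, the neuroligin, had 0.71. These 4 are the largest changes of the list, and all were separated upward. Over the whole list 12 of 22 were separated upward and 2 downward, beside 30.9% and 23% of all tested genes, with the lowest value at -0.31.

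Genes for making, loading and clearing transmitters had 16 of 26 tested, with a median of 0.44 and 0 called. The largest value was that of *dat-1*, the dopamine transporter, with 126.3 and 185.8, against 36.2 and 118.5 on the arrays labelled *daf-19(+)*. *cat-1*, the vesicular monoamine transporter, had 111.0 and 139.3, against 57.4 and 95.2. Both genes were separated upward. *glt-1*, a glutamate transporter whose arrays overlapped, had a log2 fold change of 0.59, and *bas-1*, a decarboxylase of serotonin and dopamine synthesis, one of 0.56. Among G protein-coupled receptors for the same transmitters 7 of 19 genes on the array were tested, with a median of 0.55. None passed limma, and 2 passed with the replicate block: *gar-3*, a muscarinic receptor, with 587.9 and 567.8, against 267.9 and 361.2 (limma adjusted p = 0.134, and 0.0216 in the blocked fit), and *mgl-1*, a metabotropic glutamate receptor, with 237.5 and 240.7, against 86.2 and 125.6 (limma adjusted p = 0.145, and 0.0357 in the blocked fit). Channel subunits whose symbols fall outside the rule, such as *acc-3* and *deg-3*, had a median of 0.57 over 5 tested genes.

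Markers of cell types and stages also differed between the labels. Of 11 pan-neuronal markers 10 were tested, with a median log2 fold change of 0.53, close to that of the members. By replicate number their medians were 0.93 and 0.17, where the members had 0.72 and 0.38. Of the 10, 5 were separated upward and 1 downward, beside 30.9% and 23% of all tested genes. Summed over the list, signals came to 10712.8 and 10622.8 on the arrays labelled *daf-19(-)*, against 7622.6 and 9757.9 on those labelled *daf-19(+)*. All 11 markers of body wall muscle were tested, with a median of 0.44 and sums of 24577 and 21241.5, against 14542.6 and 20324.2. Their medians by replicate number were 0.84 and 0.01, and 7 of the 11 were separated upward and 0 downward. Of 8 genes of the early embryo 7 were tested, with a median of -0.74 and sums of 4194.4 and 4520.1, against 7453.6 and 6298.2. No gene of these 3 lists passed limma, while 2 pan-neuronal and 2 muscle genes were higher and 3 early genes lower with the replicate block. Germline and maternal genes, all 7 tested, had a median of -0.21, with 1 lower in the blocked fit and sums of 11016.8 and 9239.1, against 14155.5 and 9696.6. Markers of other tissues had medians of 0.41 in the intestine (4 of 5 genes separated upward and 1 downward), 0.34 in the pharynx (1 of 5 upward, with 5 positive values) and 0.21 in the epidermis (2 of 5 upward and 1 downward), and none of them was called with or without the block. Of 5 adult yolk genes on the array 1 was tested, with overlapping groups and a log2 fold change of -1.09. Sums over the yolk genes were 202.3 and 161.1 on the arrays labelled *daf-19(-)*, against 131.8 and 1001.3 on those labelled *daf-19(+)*. Of the 7 markers of ciliated neurons, all were called higher with the block and 4 without it. No marker of the neuronal, muscle, early embryo, germline and ciliated lists was at 0 on any array. Their part in the differences of the channel genes was not tested.

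**Figure D5:**
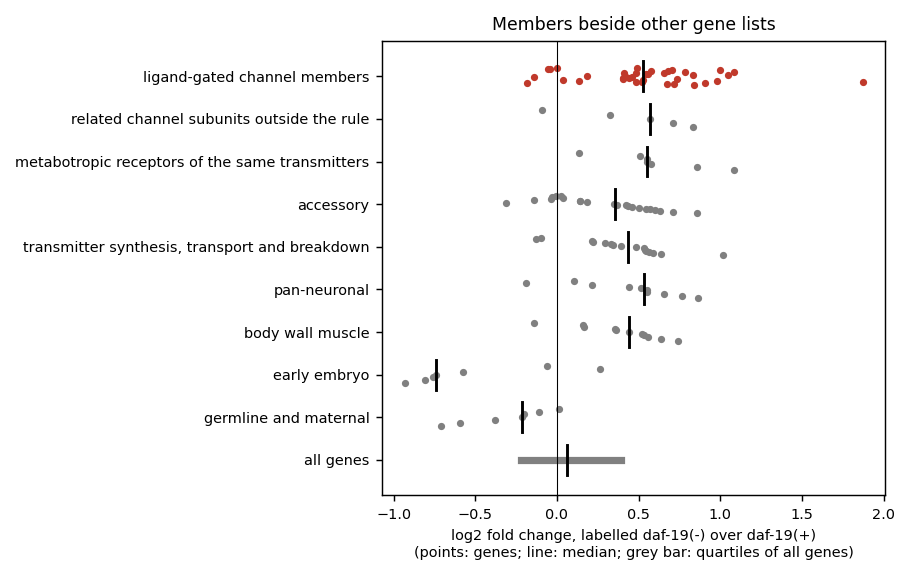
Log2 fold change, arrays labelled *daf-19(-)* over those labelled *daf-19(+)*, for the tested genes of each list, with the median as a black line and, for all tested genes, the quartiles of -0.22 and 0.39 as a grey bar. The ligand-gated channel members (median 0.53) lie level with pan-neuronal genes (0.53), and the early embryo genes (-0.74) lie on the other side of 0.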

How the data were processed

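Total RNA of 4 embryo samples, 5 micrograms each, was hybridized to 1 Affymetrix genome array each. The deposited values are signal intensities on a linear scale, which the authors computed with GCOS, whose version is not given in the sources used here. They scaled each chip to a target of 500. Nothing was done between chips, and 0 value columns were left unused. Of 22625 probe sets 77 were controls. Of the rest, 20766 name 1 gene, 887 several, and 895 are not listed in the annotation and are unnamed here. RefSeq gene IDs matched 89 of 90 members.

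Samples were grouped by the deposited labels. limma 3.58.1 in R 4.3.3 (lmFit, eBayes with a variance trend) was run on log2(signal + 16), two-sided, over 13096 probe sets at 80 or more on at least 2 arrays, with Benjamini-Hochberg adjustment. The fit was checked on simulated data whose noise followed the variance trend, with no further spread between genes. Changes were added there to brighter probe sets only, so recovery in the dimmer tested ones was not checked. The members, gene lists and rules for naming genes were chosen with earlier results of these data known. Values on each array are given for members passing the test, for the largest changes, for all other tested members and for the subunits of well studied receptors. Other genes are given by the 4 largest changes of the accessory and transmitter lists; *mgl-1*, *gar-3*, *acc-3*, *deg-3* and *osm-6* were named after their values were seen. The replicate numbers pair the samples, because a supplementary table sets the same-numbered arrays side by side as a sample and its biological replicate and forms a fold within each; replicate differences correlated at 0.12 between the groups. Alternatives were the replicate block, quantile normalization, other floors and offsets, a fit without the trend, other choices of probe set and each array left out. No sequence table was used here. The number of arrays limits the precision.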

Additional observations from a re-analysis of the deposited data

How the results depend on the processing

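The median log2 fold change of the tested members stayed positive under all 14 alternatives, and 0 members were called lower under any of them. Where the settings differ is in the number of members called higher, 1 as reported (*lgc-20*). It was 5 with the replicate block, 0 with no filter and 0 without shared probe sets, where *lgc-20* has no probe set left, and from 0 to 6 with 1 array left out. The block changed no call of a member other than the 4 it added. The median, 0.53, ran from 0.36 to 0.77 with 1 array left out and was 0.39 after quantile normalization, which moved the median of all genes to 0.00. Members at least 2-fold higher in mean signal numbered 5 as reported, 21 with no filter, 1 at a floor of 200, 1 at 80 on all 4 arrays, 2 after quantile normalization and from 1 to 14 with 1 array left out, and members at least 2-fold lower numbered 0 as reported and 7 with no filter. Members separated upward, an alternative chosen after seeing the data, numbered 26 as reported, 18 of 34 after quantile normalization (beside 26.5% of genes upward) and from 21 to 32 with 1 array left out. For all tested genes, 41 were called higher as reported, 457 with the block, 9 with no filter and from 5 to 785 with 1 array left out, and 9, 327, 2 and from 3 to 508 were called lower. The sign changed in 9 members, of which *lgc-44* was at 0.42 as reported and the others between -0.19 and 0.19: after quantile normalization *lgc-55* had -0.13, *glr-6* -0.23 and *lgc-49* -0.044, and at an offset of 64 *acr-2* had 0.0070. With 1 array left out, *glr-6* ran from -0.37 to 0.44, *lgc-55* from -0.19 to 0.47, *lgc-49* from -0.11 to 0.48, *lgc-44* from -0.13 to 0.96, *lgc-47* from -0.48 to 0.19, *lgc-4* from -0.15 to 0.061, *acr-14* from -0.20 to 0.42, *acr-2* from -0.34 to 0.45 and *lgc-33* from -0.88 to 0.59. The cause of these shifts was not tested. Signals under 80 and 2 arrays in each group limit what can be told apart.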
